A study of Mus musculus with 4 samples.

Results

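The transcripts of respiratory complex III, cytochrome c, respiratory complex IV and the mitochondrial ATP synthase were examined in RNA-Seq libraries of lung tumor-infiltrating CD4+ T cells from mice. The genes were chosen by symbol, with earlier results of these data known. They were those starting with Uqcr, with Cox4 to Cox8 or with Atp5, together with Cyc1 and Cycs, and without pseudogenes. This gave 45 of the 25239 gene symbols listed, namely 9 of complex III, 1 of cytochrome c, 18 of complex IV and 17 of ATP synthase. These enzymes sit in the inner mitochondrial membrane. Complex III passes electrons from ubiquinol to cytochrome c, complex IV passes them on to oxygen, and both build the proton gradient that ATP synthase spends to make ATP. Activated T cells use this pathway beside glycolysis. Other subunits of these complexes are encoded by mitochondrial DNA. The 6 such genes looked for by symbol were not listed in the counts and were not analysed here.

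The libraries came from C57BL/6 male mice aged 8 to 10 weeks, with 2 biological replicates for each of the labels WT and CD4/ALK4-KO. The latter genotype, CD4CreERT2+/-/Acvr1bfl/fl, carries a tamoxifen-inducible Cre recombinase driven by the Cd4 promoter, which after 5 tamoxifen doses of 75 mg/kg deletes the floxed gene of the activin receptor ALK4, Acvr1b, in cells that express Cd4. Whether WT mice received tamoxifen, and how many mice went into a library, is not given in the sources used here. Mice of both genotypes were injected intravenously with 500000 LLC-OVA cells, which derive from Lewis lung carcinoma and express ovalbumin. The tumors were taken at days 18 to 22 according to the labels and at days 16 to 20 according to the methods. The CD4+ T cells were isolated with commercial kits from leukocytes recovered on a Percoll gradient.

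The counts per library totalled 13869889 and 13943237 in the WT-labelled libraries and 11959487 and 11823908 in the CD4/ALK4-KO-labelled ones. The targeted gene did not separate the labels, with 426 and 342 counts of Acvr1b in the WT-labelled and 322 and 445 in the CD4/ALK4-KO-labelled libraries (log2 fold change 0.16 ± 0.24, SE, adjusted p = 0.66, edgeR). These counts cover the whole gene and not the deleted part alone. All 14 T cell identity genes measured, Cd4 among them, were higher in the CD4/ALK4-KO-labelled libraries, with a median log2 fold change of 2.38. Their summed level was 509 to 567 CPM (counts scaled to a common library size, adjusted by the TMM method) in the WT-labelled and 2852 to 2869 CPM in the CD4/ALK4-KO-labelled libraries. Of markers of other cells, 5 of 5 B cell genes were called higher (summed 45.9 to 58.5 against 152 to 303 CPM), 5 of 8 epithelial genes lower and 2, Epcam and Cdh1, higher (889 to 899 against 436 to 583 CPM), and 3 of 7 fibroblast genes lower (7952 to 8353 against 5371 to 5815 CPM). Of 11 macrophage genes none was called lower and 1, Csf1r, higher, with summed levels of 7039 to 7991 against 6974 to 7149 CPM. Of 5 neutrophil and 5 endothelial genes 1 each was called higher, Csf3r and Pecam1, and of the 5 erythroid genes the only one tested was not called. In all libraries the summed macrophage and fibroblast levels lay above that of the T cell genes. The results below need therefore not be those of T cells alone. Fewer cells of a type and less RNA per cell cannot be told apart in such bulk samples, and the part of these markers in the results below was not tested.

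The promoters of the genes are shown first, because nuclear genes of the respiratory chain are known to share binding motifs of the transcription factors NRF1 and GABP, the latter a member of the ETS family. RefSeq windows from 250 bases before to 50 bases after the transcription start (build GRCm38.p6) were found for 34 of the 45 genes, 37 windows in all. The NRF1 motif GCGCANGCG, where N is any base, was present on either strand in 29.7% of these windows and in 6.25% of all 32851 promoter windows. The ETS motif CCGGAAG was present in 29.7% and 8.86%, the YY1 motif ATGGCGG in 5.41% and 4.05%, the SP1 motif GGGCGG in 35.1% and 35.7%, and the TATA box TATAAA in 10.8% and 13.6%. The 60-base stretches below, printed 5′ to 3′ along the gene with the motif in capitals, lie upstream of the start and were chosen to show 1 motif in each of the complexes and in cytochrome c, in genes that differed between the genotypes and in genes that did not pass the test.
Uqcr11, ETS motif, chr10:80406855-80406914, minus strand: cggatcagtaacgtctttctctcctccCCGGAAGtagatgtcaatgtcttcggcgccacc
Cycs, NRF1 motif, chr6:50566597-50566656, minus strand: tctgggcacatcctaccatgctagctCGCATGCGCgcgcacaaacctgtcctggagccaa
Cox6a1, NRF1 motif, chr5:115349087-115349146, minus strand: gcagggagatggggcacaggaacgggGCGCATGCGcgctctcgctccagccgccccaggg
Atp5e, ETS motif, chr2:174464171-174464230, minus strand: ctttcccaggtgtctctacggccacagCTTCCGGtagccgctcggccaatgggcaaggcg
Atp5l, NRF1 motif, chr9:44920933-44920992, minus strand: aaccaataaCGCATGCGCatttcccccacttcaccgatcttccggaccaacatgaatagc
Atp5h, NRF1 motif, chr11:115420027-115420086, minus strand: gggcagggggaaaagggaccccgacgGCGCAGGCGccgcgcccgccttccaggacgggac

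The comparison between the genotypes asked how the transcripts of each complex differed between the libraries labelled CD4/ALK4-KO and those labelled WT. A large part of the module was lower in the CD4/ALK4-KO-labelled libraries. Of the 41 genes that passed the filter on low counts, 23 were lower at an adjusted p below 0.05 (edgeR quasi-likelihood test, adjusted over 13919 genes), none was higher and 18 did not pass. Among all genes tested, 15.4% were called lower and 17.4% higher. The median log2 fold change was -0.74 over the 41 genes and -0.0082 over all genes, and 39 of the 41 values were below 0. In 36 of the 41 both CD4/ALK4-KO-labelled libraries lay below both WT-labelled ones, against 34.0% of all genes tested. The 4 genes that the filter left out, Cox4i2, Cox7b2, Cox8b and Cox8c, are given below by their counts.

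**Figure D1:**
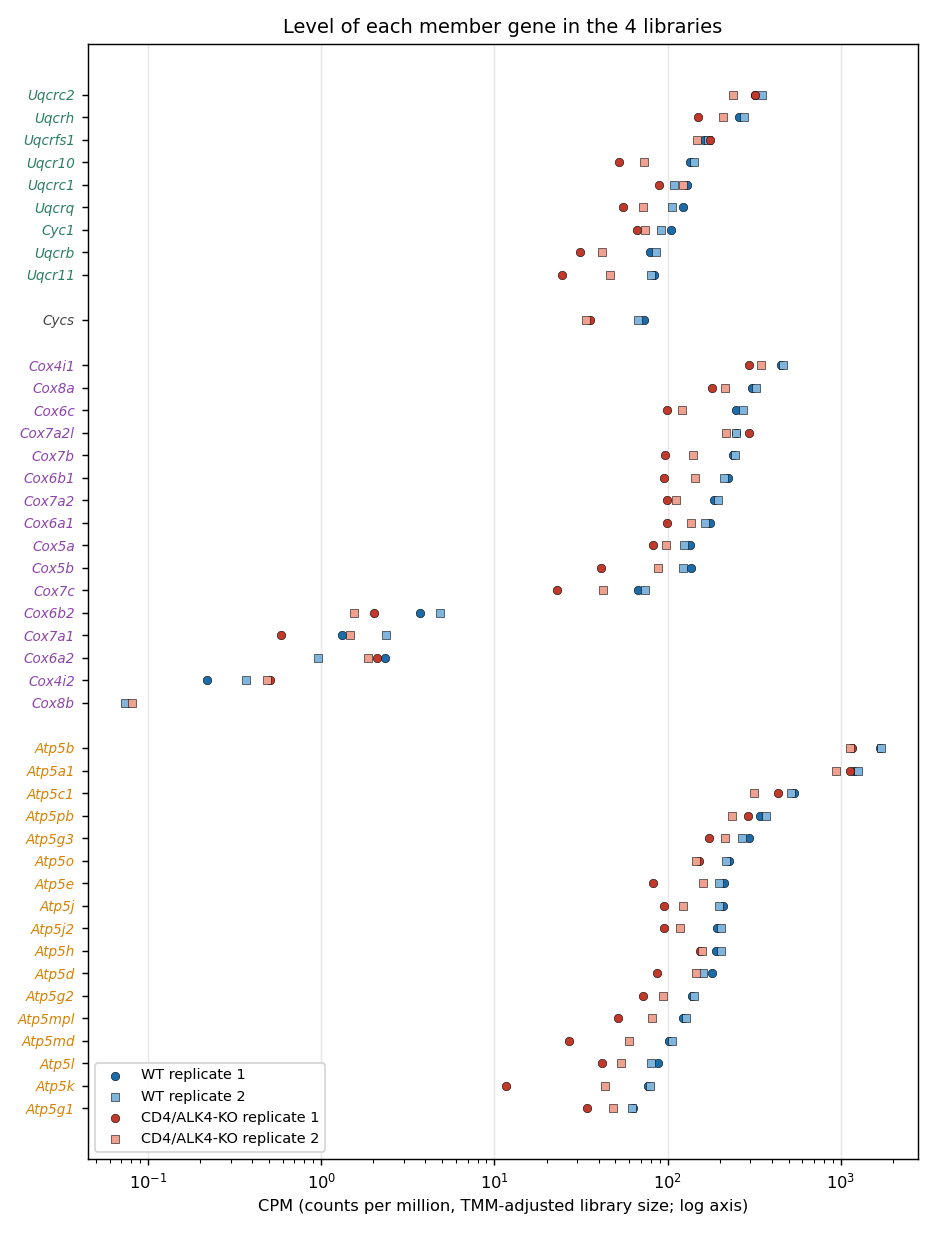
Level of each gene in CPM on a log axis, 1 point per library (circles for replicate 1, squares for replicate 2), for the 43 genes with a count in some library (libraries at 0 are not drawn). Most genes sit between 20 and 500 CPM with both CD4/ALK4-KO-labelled points left of the WT-labelled ones, whereas Uqcrfs1, Uqcrc1 and Cox7a2l overlap and 5 complex IV isoforms lie below 5 CPM.

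In complex III, the small subunits were lower and the large ones did not pass the test. Of 9 genes, 4 were called lower, with a median log2 fold change of -0.58. Uqcr11, a small subunit of the complex, had 83.0 and 80.2 CPM in the WT-labelled and 24.5 and 46.7 CPM in the CD4/ALK4-KO-labelled libraries. Its groups did not overlap, and the fitted log2 difference came to -1.20 ± 0.26 (SE, adjusted p = 0.0011, edgeR), or -0.78 without CD4/ALK4-KO replicate 1. Uqcrb, which takes part in ubiquinone binding, had 79.5 and 86.0 CPM against 31.2 and 41.6 CPM, a log2 fold change of -1.18 ± 0.23 (SE, adjusted p = 0.00034, edgeR). Uqcr10, another small membrane subunit, had 134 and 141 CPM against 52.4 and 73.3 CPM, a log2 fold change of -1.13 ± 0.22 (SE, adjusted p = 0.00045, edgeR). In all 3 genes the groups did not overlap, and CD4/ALK4-KO replicate 1 had the lowest value. Uqcrq, likewise a small subunit, fell by 0.84 on the log2 scale, while Uqcrh, the hinge protein that touches cytochrome c1, was just outside the threshold with -0.58 (adjusted p = 0.051, edgeR, from 1.6e-27 to 0.31 over the alternatives).

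The subunits that carry the redox centres and the core proteins differed less. Cyc1, the cytochrome c1 subunit, had 105 and 92.0 CPM in the WT-labelled and 66.6 and 73.7 CPM in the CD4/ALK4-KO-labelled libraries. The groups did not overlap, but the log2 fold change of -0.49 ± 0.21 (SE) did not pass the test (adjusted p = 0.082, edgeR). It passed with upper quartile scaling (adjusted p = 0.045, edgeR). With a library left out, the log2 fold change of Cyc1 ran from -0.59 to -0.39. Uqcrfs1, the Rieske iron-sulfur protein, had 163 and 172 CPM against 176 and 147 CPM. Its CD4/ALK4-KO-labelled values lay on either side of the WT-labelled ones, with a log2 fold change of -0.052 ± 0.21 (SE, adjusted p = 0.88, edgeR). Of the core proteins, Uqcrc1 had 130 and 108 CPM against 89.0 and 122 CPM, which overlap (log2 fold change -0.18 ± 0.22, SE). Uqcrc2, the most counted gene of the complex, had 322 and 353 CPM against 319 and 238 CPM, with a log2 fold change of -0.28 ± 0.22 (SE). This was -0.088 without CD4/ALK4-KO replicate 2 and -0.47 without replicate 1, where it was called lower (adjusted p = 0.041, edgeR). Part of its annotated exons overlaps those of Pdzd9, so that its counts are uncertain. Over the roles, 4 of the 5 small subunits were called lower with a median of -1.13, and none of the 4 core and catalytic subunits, with a median of -0.23. These roles were assigned after the values were seen, and the difference between them was not tested.

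Cytochrome c itself, the soluble carrier between the complexes that also takes part in apoptosis when released, was also lower. Cycs had 72.7 and 67.3 CPM in the WT-labelled and 35.7 and 34.0 CPM in the CD4/ALK4-KO-labelled libraries, with CD4/ALK4-KO-labelled replicates that lay close together. Its ratio of 0.498 corresponded to a log2 fold change of -1.01 ± 0.22 (SE, adjusted p = 0.0011, edgeR). With a library left out, the value ran from -1.07 to -0.96 and was called each time.

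In complex IV, 8 of the 14 tested genes were called lower, with a median log2 fold change of -0.84. Cox6c, a nuclear-encoded subunit present in all tissues, had 247 and 272 CPM in the WT-labelled and 98.6 and 120 CPM in the CD4/ALK4-KO-labelled libraries, a ratio of 0.422. It had the lowest adjusted p of the 41 genes of these complexes (0.00015, edgeR), with a log2 fold change of -1.25 ± 0.22 (SE). Cox7c, a small subunit, had 67.9 and 73.8 CPM against 23.0 and 42.6 CPM, a log2 fold change of -1.11 ± 0.25 (SE, adjusted p = 0.0018, edgeR). This was -0.70 without CD4/ALK4-KO replicate 1 and -1.63 without replicate 2. Cox7b, an X-linked small subunit, had 239 and 244 CPM against 97.2 and 141 CPM, a log2 fold change of -1.02 ± 0.23 (SE, adjusted p = 0.0015, edgeR). In these 3 genes the groups did not overlap, and the CD4/ALK4-KO-labelled library with the lower value was replicate 1 each time.

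Cox5b, Cox6b1 and Cox7a2 were also lower, with log2 fold changes of -1.01, -0.86 and -0.84, and Cox8a with -0.68. For Cox5b the value was -0.54 without CD4/ALK4-KO replicate 1 and -1.65 without replicate 2. The 3 genes Cox4i1, Cox5a and Cox6a1 had log2 fold changes between -0.54 and -0.51 and missed the threshold, with adjusted p-values from 0.060 to 0.069 (edgeR). Among them, Cox4i1, the regulatory subunit whose isoform partner responds to oxygen, was the most counted gene of the complex, with 451 and 467 CPM against 295 and 348 CPM. Its groups did not overlap and its standard error was 0.21. All 3 were called lower with upper quartile scaling. Without CD4/ALK4-KO replicate 1, Cox4i1, Cox5a and Cox6a1 were at -0.37, -0.37 and -0.30, and without replicate 2 at -0.64, -0.66 and -0.79. Once CD4/ALK4-KO replicate 1 was omitted, complex IV had a median of -0.53 and ATP synthase one of -0.57.

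Cox7a2l, also known as SCAF1, a protein linked to supercomplexes of complexes III and IV, stood apart from its family. Whether its protein joins these complexes in the mice used cannot be read from counts. It had 250 and 248 CPM in the WT-labelled and 294 and 218 CPM in the CD4/ALK4-KO-labelled libraries. The CD4/ALK4-KO-labelled values lay on either side of the WT-labelled ones, and the log2 fold change was 0.042 ± 0.22 (SE, adjusted p = 0.91, edgeR), a sign that turned with upper quartile scaling (-0.029), with T cell receptor scaling (-2.16) and without CD4/ALK4-KO replicate 1 (-0.16). Per exonic length, its share of the transcripts of the Cox7a family was 43.6% and 41.9% in the WT-labelled libraries and 63.0% and 52.3% in the CD4/ALK4-KO-labelled ones. The share of its relative Cox7a2, a structural subunit of complex IV, was 55.9% and 57.3% against 36.7% and 46.9%. The shares did not overlap between the genotypes, but with 2 libraries against 2 an exact two-sided permutation test cannot give less than p = 0.33. Of the 75-base stretches of Cox7a2l, 12.0% also occur in the predicted gene Gm6969, which makes its counts uncertain to that extent. Shares of 21.7% for Cox5a, 11.6% for Cox4i1 and, in ATP synthase, 12.5% for Atp5pb also occur in other annotated genes, with the same limit.

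Isoforms known from other tissues were scarce. Cox6b2, the testis form of Cox6b, had 51 and 66 counts in the WT-labelled and 24 and 19 in the CD4/ALK4-KO-labelled libraries, with a log2 fold change of -1.27 ± 0.48 (SE, adjusted p = 0.045, edgeR). This call was lost with DESeq2 (adjusted p = 0.084, from 7.4e-11 to 0.37 over the alternatives). Cox7a1, the heart and muscle form of Cox7a, had 18 and 32 against 7 and 18 counts and did not pass the test (log2 fold change -0.84 ± 0.64, SE). The muscle form Cox6a2 had 32 and 13 against 25 and 23 counts, with a log2 fold change of 0.26 ± 0.58 (SE) that was -0.24 without WT replicate 2 and -1.90 with T cell receptor scaling. Cox4i2, the lung and hypoxia-linked partner of Cox4i1, had 3 and 5 against 6 and 6 counts and was below the filter, with a log2 fold change of 0.73 ± 1.18 (SE, adjusted p = 0.70, edgeR) when no filter was set. Cox8b had 1 count in 1 library of each genotype, and Cox7b2 and Cox8c had 0 counts in all libraries, which allows up to 0.219 to 0.252 CPM per library (3 counts, for counting error only). Per exonic length these isoforms made up 0.062% (Cox4i2), 0.79% (Cox6a2) and 1.63% (Cox6b2) of their pairs in the WT-labelled libraries and 0.15%, 1.44% and 1.31% in the CD4/ALK4-KO-labelled ones, so the common forms Cox4i1, Cox6a1 and Cox6b1 made up nearly all of each pair in both.

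In ATP synthase all 17 genes were tested, 10 were called lower, and in all 17 the groups did not overlap, with a median log2 fold change of -0.60. The catalytic F1 head was led by Atp5b, its beta subunit and the most counted gene of all, with 1676 and 1701 CPM in the WT-labelled and 1160 and 1126 CPM in the CD4/ALK4-KO-labelled libraries. Its log2 fold change was -0.56 ± 0.20 (SE, adjusted p = 0.032, edgeR), and this call was lost without WT replicate 1 (adjusted p = 0.29, from 2.3e-30 to 0.29 over the alternatives) and without WT replicate 2. Atp5a1, the alpha subunit, with which Atp5b forms the catalytic ring, had 1185 and 1263 against 1132 and 939 CPM and did not pass the test (log2 fold change -0.24 ± 0.20, SE). Of the other F1 subunits, Atp5e was called lower at -0.76, a value of -0.32 without CD4/ALK4-KO replicate 1, while Atp5d (-0.55) and Atp5c1 (-0.49) did not pass. Both passed with upper quartile scaling. Atp5d was at -0.97 and called without CD4/ALK4-KO replicate 2 but at -0.20 without replicate 1, whereas Atp5c1 was at -0.71 and called without replicate 1 but at -0.27 without replicate 2. The peripheral stalk holds the head still against the rotor. In it, coupling factor 6, Atp5j (-0.90), and the oligomycin sensitivity protein, Atp5o (-0.57), were called lower. The b subunit, Atp5pb, was at -0.45 and not called, and at -0.58 without CD4/ALK4-KO replicate 1. It was called with T cell receptor scaling and with a crossed block of the replicates chosen after seeing the data (adjusted p = 0.020, edgeR). The remaining gene of the stalk, Atp5h, had 190 and 205 against 154 and 159 CPM, a small gap with replicates close together. Its log2 fold change was -0.33 ± 0.21 (SE, adjusted p = 0.24, edgeR).

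The c ring of the rotor is built from a single mature protein that 3 genes encode. Atp5g1 had 62.8 and 62.4 against 34.4 and 48.1 CPM, a log2 fold change of -0.60 ± 0.23 (SE, adjusted p = 0.045, edgeR) that was -0.35 without CD4/ALK4-KO replicate 1. Its call was lost with DESeq2's Wald test (adjusted p = 0.058) and when blocking on the replicate number (adjusted p = 0.12, edgeR). Atp5g2 had 138 and 142 against 72.4 and 94.4 CPM, a log2 fold change of -0.74 ± 0.22 (SE, adjusted p = 0.011, edgeR). With a library left out, this ran from -0.95 to -0.54, and Atp5g2 is not among the genes called each time. Atp5g3 had 295 and 269 against 172 and 215 CPM, a log2 fold change of -0.54 ± 0.22 (SE). It did not pass the test (adjusted p = 0.062, edgeR), but did with upper quartile scaling and with DESeq2. Its log2 fold change was -0.36 without CD4/ALK4-KO replicate 1 and -0.72 without replicate 2. All 3 were below the WT-labelled range in both CD4/ALK4-KO-labelled libraries. By counts, the 3 genes made up 12.9%, 28.9% and 58.2% of the family in the WT-labelled and 12.9%, 26.2% and 60.9% in the CD4/ALK4-KO-labelled libraries, changes of under 3 percentage points. Per exonic length, as used for the other families, the shares were 2.15%, 32.23% and 65.62% against 2.14%, 29.21% and 68.65%. Of the 75-base stretches of Atp5g2, 86.9% also occur in the predicted genes Gm10175 and Gm10231, so its counts are uncertain.

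The small membrane subunits were the lowest group of ATP synthase, with 4 of 5 called and a median of -0.92. These groups were formed after the values were seen, and the difference between them was not tested. Atp5md, a subunit linked to dimers of the enzyme, had 102 and 106 CPM in the WT-labelled and 27.1 and 59.8 CPM in the CD4/ALK4-KO-labelled libraries. Its log2 fold change was -1.26 ± 0.29 (SE, adjusted p = 0.0027, edgeR), and -0.77 without CD4/ALK4-KO replicate 1 and -1.95 without replicate 2. Atp5mpl, another small proteolipid, had 122 and 128 against 51.5 and 80.9 CPM, a log2 fold change of -0.92 ± 0.23 (SE, adjusted p = 0.0039, edgeR), and -0.60 without CD4/ALK4-KO replicate 1. Atp5j2 (-0.90) and Atp5l (-0.81), the f and g subunits, were also lower. Of their 75-base stretches, none of Atp5j2 but 63.0% of Atp5l occur in another annotated gene, so the counts of Atp5l are uncertain, as are those of Atp5o with 34.2%. Atp5k, the e subunit, had 77.1 and 79.5 CPM against 11.6 and 43.4 CPM, and its replicates differed most among the CD4/ALK4-KO-labelled libraries. With a standard error of 0.77 its log2 fold change of -1.51 did not pass the test (adjusted p = 0.27, edgeR), although it was called when any single library was left out, with -0.82 once CD4/ALK4-KO replicate 1 was omitted and -2.76 once replicate 2 was. Over all alternatives its adjusted p ran from 1.2e-22 to 0.34.

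**Figure D2:**
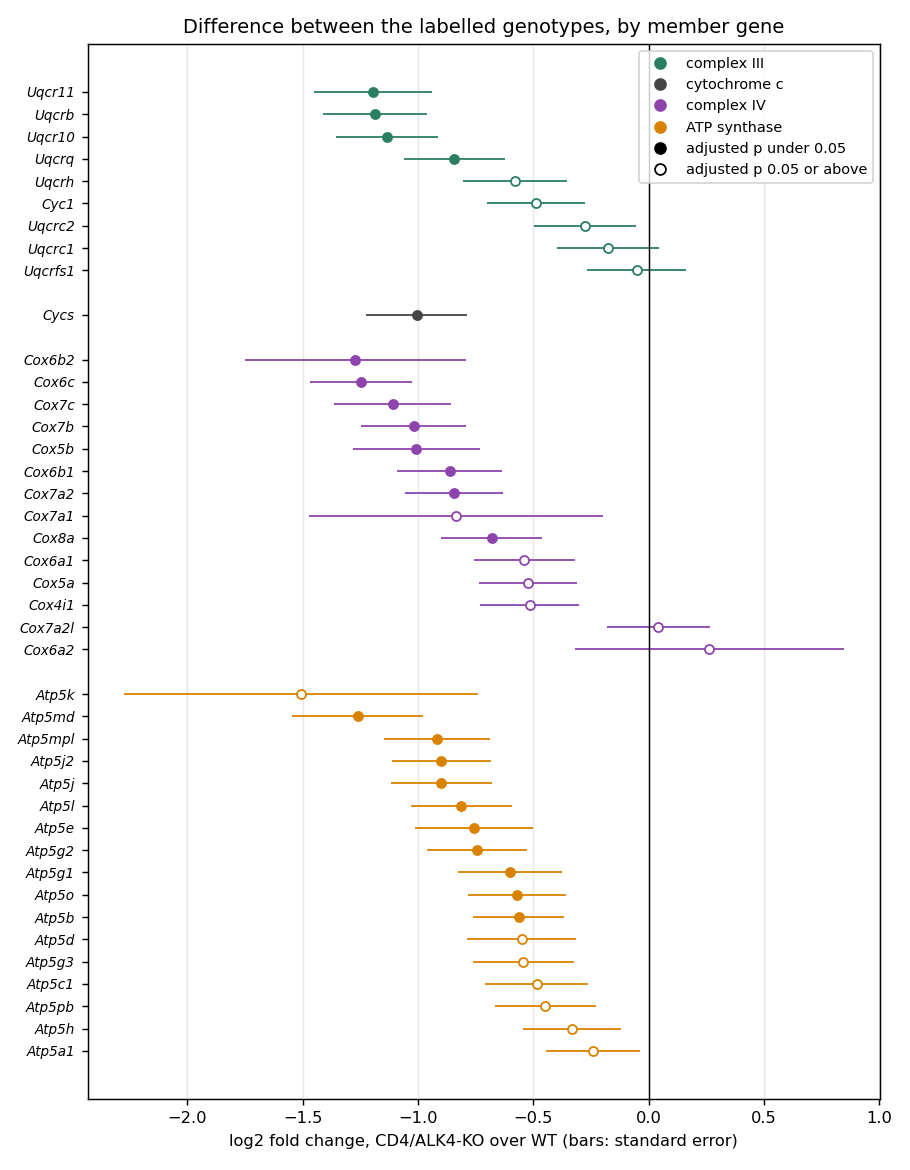
log2 fold change of each tested gene, CD4/ALK4-KO-labelled over WT-labelled libraries (x axis, bars are standard errors, n = 2 libraries per genotype), coloured by complex, with filled points for an adjusted p under 0.05. Of the 41 points 39 lie left of 0 and 23 are filled; Cox7a2l and Cox6a2 are the 2 on the right.

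Summed over its genes, each complex was lower in the CD4/ALK4-KO-labelled libraries. All 45 genes together had 9735 and 9837 CPM in the WT-labelled and 6507 and 6784 CPM in the CD4/ALK4-KO-labelled libraries, a ratio of 0.679. Complex III had 1397 and 1417 CPM against 964 and 1023 CPM, a ratio of 0.706. Complex IV had 2426 and 2456 CPM against 1410 and 1667 CPM, a ratio of 0.630. ATP synthase had 5840 and 5897 CPM against 4097 and 4060 CPM, a ratio of 0.695. In every sum the groups lay apart by more than the spread of either genotype, while the exact two-sided permutation test could not go below p = 0.33. Complex I, whose genes were taken as a comparison, had a ratio of 0.658, and 17 of its 37 tested genes were called lower with a median log2 fold change of -0.60. Its most counted gene by symbol was Ndufa4, now assigned to complex IV.

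**Figure D3:**
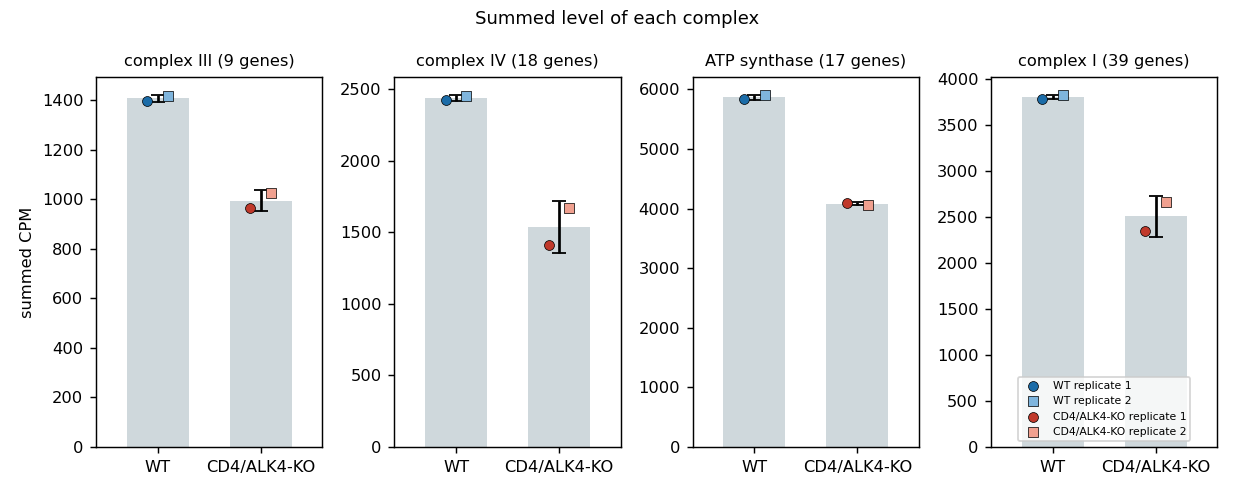
Summed CPM of the genes of complex III, complex IV, ATP synthase and, as a comparison, complex I (y axis, from 0). Bars are means and error bars SDs of the 2 libraries of each genotype, points are single libraries; in all 4 panels both CD4/ALK4-KO-labelled points lie below the WT-labelled ones.

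To see which genes differed from the summed level of the module, the same test was run with each library scaled to the summed counts of the 45 genes. ATP synthase gave 258700 of the 427703 counts in this sum, so the scale mostly follows abundant genes such as Atp5b. The median over the 41 genes was therefore not 0 but -0.19. On this scale the median over all genes tested was 0.55, and 4.21% of them were called lower and 41.9% higher. Of the 41 genes, 5 were called lower, namely Uqcr11 (-0.65), Uqcrb (-0.63), Uqcr10 (-0.58), Cox6c (-0.69) and Atp5md (-0.71), with adjusted p-values from 0.0149 to 0.0375 (edgeR). Only Cox7a2l was called higher, with a log2 fold change of 0.61 ± 0.24 (SE, adjusted p = 0.039, edgeR). The other 35 genes, among them Atp5b with -0.0036 and Cox4i1 with 0.042, did not pass. These calls rested on the replicates: without WT replicate 1 or without WT replicate 2 only 1 gene was lower and none higher, without CD4/ALK4-KO replicate 1 it was 2 and 1, and without CD4/ALK4-KO replicate 2 it was 14 and 4. Without CD4/ALK4-KO replicate 1, Cox7a2l was at 0.34 on this scale and not called.

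The log2 fold change moved with the length of the protein. Across the 41 genes, Spearman's rho between coding length and log2 fold change was 0.74, as a description of genes that share the same libraries. Exonic length, the measure used first, gave a rho of 0.32, and 0.073 without CD4/ALK4-KO replicate 1. By complex, the rho with exonic length was 0.63 in complex III, -0.25 in complex IV and 0.40 in ATP synthase. Of the 17 genes with at most 300 bp of coding sequence, such as Atp5md (174 bp) and Uqcr11 (168 bp), 13 were lower, with a median of -0.90. Of the 13 genes from 300 to 500 bp 8 were lower (median -0.74), of the 7 from 500 to 1000 bp 1 was (median -0.49), and of the 4 longer ones, Atp5a1, Atp5b, Uqcrc1 and Uqcrc2, 1 was (median -0.26). Among all coding genes tested, these included, the same order was seen, with 41.5%, 32.0%, 18.4% and 12.3% called lower in the 4 length classes and medians of -0.57, -0.39, -0.17 and 0.093. The medians of the module were thus below those of all coding genes of like length in each class. Over all 13287 coding genes rho was 0.24.

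Among these genes, a length order was also present between the CD4/ALK4-KO-labelled replicates. Replicate 1 was below replicate 2 in 30 of the 41 genes, and the log2 ratio of replicate 1 over replicate 2 had a rho of 0.61 with coding length, against 0.14 for the WT-labelled replicates. Over all 13287 coding genes the rho of the CD4/ALK4-KO-labelled ratio with coding length was -0.095, of the opposite sign, and that of the WT-labelled ratio -0.080. The medians of the CD4/ALK4-KO-labelled ratio over all coding genes were -0.26 up to 300 bp and 0.0073 from 300 to 500 bp. They were 0.058 from 500 to 1000 bp and -0.029 above. Up to 1000 bp, where most genes of the module lie, the medians of all coding genes thus rose with length too. In 35 of the 41 genes the CD4/ALK4-KO-labelled replicates lay farther apart than the WT-labelled ones. Without CD4/ALK4-KO replicate 1 the rho between coding length and log2 fold change was 0.46, and without replicate 2 it was 0.76. In ATP synthase it went from 0.84 to 0.32 without replicate 1, in complex III from 0.80 to 0.63 and in complex IV from 0.55 to 0.51. The part of transcript length or of RNA quality in the fold changes was not tested.

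**Figure D4:**
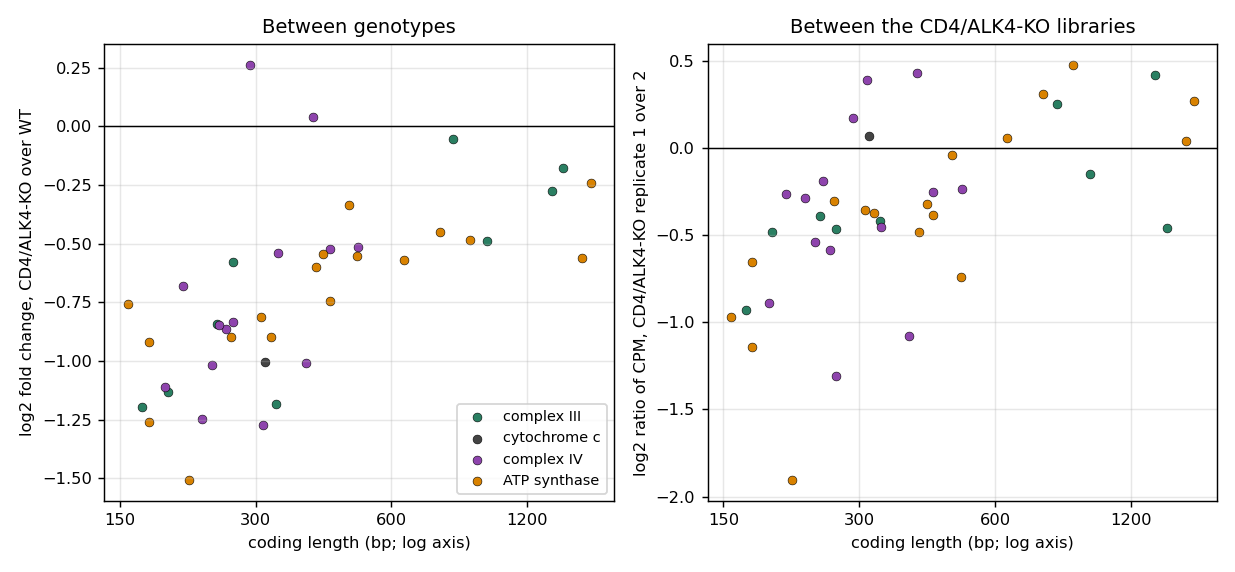
Left, log2 fold change between the genotypes against coding length in bp (log axis), 1 point per tested gene coloured by complex. Right, log2 ratio of CPM of CD4/ALK4-KO replicate 1 over replicate 2 against the same axis; in both panels the points tend to rise with length, and Atp5k is the lowest point.

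Motif and fold change did not go together in an obvious way. Of the 17 tested genes with an NRF1 or ETS motif in a promoter window, 10 were called lower, with a median log2 fold change of -0.74. By motif, 5 of 11 with NRF1 (median -0.57) and 7 of 11 with ETS (median -0.81) were called lower, some genes having both. Of the 15 with a window but neither motif, 9 were called lower, with a median of -0.84. Those with a motif ran from Atp5k (-1.51) to Uqcrc1 (-0.18), and those without from Cox6b2 (-1.27) to Cox7a2l (0.042). A stretch that matches these letters is not evidence of binding.

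Genes that assemble or serve these complexes were counted against the 15.4% of all genes called lower; a difference between these lists and the complexes was not tested. Of 21 complex IV assembly factors tested, 2 were lower (9.52%, below that share), Cox17 (-0.75), the copper chaperone, and Cmc2 (-0.82), with a median of -0.14, and the most counted, Coa5, was at 0.14 and not called. Of 6 complex III assembly factors the only one called was also the most counted, Uqcc2, which acts in cytochrome b synthesis (-1.44, adjusted p = 9.6e-05, edgeR), and the median was -0.13 (16.7% lower, near the share of all genes). Of 5 genes for ATP synthase assembly and inhibition, 1 was lower, again the most counted, Atpif1, the inhibitor of ATP hydrolysis by the enzyme. It had 2943 and 2847 counts in the WT-labelled and 741 and 1084 in the CD4/ALK4-KO-labelled libraries, with a log2 fold change of -1.50 ± 0.22 (SE, adjusted p = 2.3e-05, edgeR). Of 3 complex IV-associated genes, 2 were lower, Ndufa4 (-0.998), which is also in the complex I count, and Higd1a (-1.17). Cox17, Cmc2 and Higd1a were named after their values were seen.

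Of the 4 genes of complex II, which feeds electrons from succinate, 2 were lower, with a median of -0.49, and the most counted, Sdha, was at -0.36 and not called. Of 7 genes for nucleotide and phosphate exchange, 2 were lower, the ADP/ATP carrier Slc25a4 (-0.75) and the channel Vdac3 (-0.74), both named after their values were seen, while the most counted, the carrier Slc25a5, was at -0.41 and not called. Of 11 tested regulators of respiratory gene transcription none was called in either direction, and the median was 0.0036. The most counted of them, Gabpa, the DNA-binding subunit of GABP, had 2235 and 2270 counts in the WT-labelled and 2385 and 1622 in the CD4/ALK4-KO-labelled libraries, with a log2 fold change of 0.0036 ± 0.23 (SE). Its exons overlap those of Atp5j, and 8.57% of the 75-base stretches of Atp5j are shared. Mitochondrial ribosomal protein genes had 28 of 78 called lower with a median of -0.45, and the most counted, Mrpl30, was lower (-0.70). Of the 97 genes whose symbols start like those of the cytosolic ribosome 31 were lower and 3 higher, with a median of -0.44, and the most counted, Rpl4, was at -0.30 and not called. The 3 higher ones, Rps6ka1 (1.53), Rps6ka3 (0.73) and Rps6ka5 (0.78), are kinases and not ribosomal proteins. Without the 10 S6 kinase symbols, 29 of 87 were lower and none higher, with a median of -0.47.

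The size of the difference depended on what the libraries were scaled to. With the libraries scaled to the T cell receptor genes Cd3d, Cd3e, Cd3g and Cd247, 40 of the 41 genes were called lower, with a median of -2.92. On this scale 92.0% of all genes were called lower and the median over all genes was -2.19. For the alternatives named next, the share of all genes called lower is not given. Their counts alone therefore do not set the module apart from all genes. With DESeq2's Wald test in place of edgeR 24 genes were lower, and without WT replicate 1 or WT replicate 2 the count was 12 or 14. The 10 genes Uqcr11, Uqcrb, Uqcr10, Cycs, Cox6c, Cox7c, Cox7b, Cox5b, Atp5md and Atp5mpl were called lower under each alternative run on the level scale, each left-out library included; the scale of the summed genes, on which 5 were called lower, is a separate test.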

How the data were processed

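Groups followed the genotype in the sample labels. Per the methods, the authors ran FastQC on the 75 bp single-end reads, used HISAT2 for alignment to mm10 and htseq-count (intersection-nonempty option) for counting, and deposited the resulting raw counts without normalization. Annotation, strand option and versions are not given in the sources used here, and without strand the reads of overlapping genes cannot be told apart. Library totals came to 47.3% to 55.8% of the number of reads stated. Replicates differed by more than the noise of counting (chi-square over degrees of freedom 16.0 in the WT-labelled and 28.7 in the CD4/ALK4-KO-labelled libraries) and count as separate samples.

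All genes were tested with edgeR 4.0.16 in R 4.3.3 (filterByExpr, TMM, robust glmQLFit with genotype alone, glmQLFTest, Benjamini-Hochberg over 13919 genes, threshold 0.05), and SE is the absolute log2 fold change over the square root of F. The scripts were checked on simulated counts. Gene models were those of GENCODE M21 (GRCm38, the assembly of mm10), which held all 45 genes, Atp5pb and Atp5md under older names. Coding length was added after exonic length, which long annotated transcripts inflate in genes such as Atp5g1 and whose rho with the log2 fold change was 0.32 over the 41 genes. Promoters were from RefSeq, and no sequence of Atp5a1 was printed.

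The genes and lists were chosen with earlier results of these data known, and roles within complex III and ATP synthase were assigned after the values were seen. Values in all libraries are given for the 3 lowest and 2 highest log2 fold changes of each complex (mean counts of 100 or more), the most counted gene of each, Cyc1, Cycs, Cox7a2l, the c ring genes, tissue isoforms and any gene called higher. Of other pathway lists, the most counted gene and those called higher are named, and of marker lists other than those of T and B cells those called higher. The alternatives used other scalings (size factors of DESeq2 1.42.0, upper quartile, T cell receptor genes), other filters (none, or 10 counts in every library), DESeq2's Wald test, blocking on the replicate number, and each library left out. A crossed block was chosen after seeing the data.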

Additional observations from a re-analysis of the deposited data

How the results depend on the processing

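On no scale but that of the module itself was a gene called higher, under any alternative run. The count of lower genes, 23, lay between 19 (replicate block) and 32 (crossed replicate block) for every alternative that kept all libraries, except T cell receptor scaling. No share of all genes called lower is given beside these counts, or beside those with a library left out. Of the 23 genes, 18 were called under all alternatives that kept every library, and 10 also under each left-out library. T cell receptor scaling gave 40 lower genes and a median log2 fold change of -2.92, with 9 and -2.75 for complex III, 14 and -3.01 for complex IV and 16 and -2.77 for ATP synthase. It gave 266 lower genes over the pathway lists, which had 85 with TMM, 53 with the replicate block and 134 with the crossed block. Summed levels then had log2 ratios of -2.74 (all genes), -2.69 (complex III), -2.84 (complex IV) and -2.71 (ATP synthase), against -0.56, -0.50, -0.67 and -0.53 with TMM. With upper quartile scaling they were -0.63 for all genes, -0.57 for complex III and -0.59 for ATP synthase, and with DESeq2's size factors the ATP synthase value was -0.52.

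Scaled to the summed genes of the module, 5 genes were lower and 1 higher. The replicate block gave 2 lower and 0 higher, DESeq2's Wald test 3 and 2, and the crossed block 10 and 2. Leaving out 1 library gave 1 to 14 lower and 0 to 4 higher.

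Leaving out 1 library moved the count of lower genes from 12 to 30 and their median from -0.95 to -0.55. For complex III the median ran from -0.84 to -0.47, for complex IV the count ran from 4 to 10 and the median from -1.02 to -0.53, and for ATP synthase the count ran from 4 to 13 and the median from -0.95 to -0.57. The log2 ratio of summed complex IV ran from -0.79 to -0.55, and the pathway lists had 27 to 119 lower genes. The lone library of a genotype is then assumed to vary like the pair of the other. Of single genes, the sign turned for Cox7a2l with upper quartile scaling (-0.029), T cell receptor scaling (-2.16) and a left-out library (-0.16 to 0.24), for Cox6a2 with T cell receptor scaling (-1.90) and a left-out library (-0.24 to 1.03), and with a left-out library for Uqcrc1 (-0.43 to 0.064) and Uqcrfs1 (-0.15 to 0.065). The cause was not tested.

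The same replicate number in both genotypes did not mark shared deviations (correlation -0.24 over 13919 genes), so the numbers were not used as pairs. With the replicate block 19 genes were lower, and the calls of Atp5g1, Atp5o, Atp5b, Cox6b2 and Cox8a were lost while Atp5k was gained. The crossed pairing, chosen after seeing the data, gave 32. With 2 libraries per genotype no exact permutation test of a single value could pass the threshold, and of the 4 isoforms with the fewest counts Cox4i2 and Cox8b entered only the fit without a filter (43 genes), where neither was called, and Cox7b2 and Cox8c entered none.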
